A study of Mus musculus with 4 samples.

Results

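Heat shock proteins, DnaJ proteins and the cytosolic chaperonin CCT fold, refold and assemble other proteins. The genes described here were the rows of the expression table with names of these families (symbols starting with Hspa, Hspb, Hspd, Hspe, Hsph, Hsp90, Dnaja, Dnajb or Dnajc and a number, and Cct2 to Cct8) whose wild type mean log2 RPKM (reads per kilobase of gene, scaled to library size) was 0 or more, that is, 1 RPKM. Of 26068 named rows, 81 had such a name and 74 met the minimum. Members were thus chosen by their wild type values, so counts over them are given as description. Dnajc12 (wild type mean 0.32), Dnajc25 (0.82) and Dnajb5 (1.03) were just inside the minimum, and Hspa12b (-0.37), Dnajc17 (-0.84) and Hspb8 (-1.34) just outside it. The other rows below it were Dnajc6, Dnajc22, Hspb2 and Hspb3. None of these 7 was tested.

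RNA came from whole testes of B6D2F1 male mice, hybrids of inbred lines, aged 24 days. There were 2 wild type libraries and 2 libraries from mice homozygous for an Adad2 knockout, and no other allele or treatment is named in the labels. The series' title ties the study to piRNA production and to spermiogenesis, in which spermatids become sperm. Whether the replicates are separate animals is not said in the labels, so p-values cover only the spread among these libraries, and that spread may be technical. The step that 1 read makes in the values gave depths of about 29500000 to 37000000 reads per library. Adad2 itself was at 4.66 and 4.47 log2 RPKM in wild type and 3.73 and 3.30 in the knockout.

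In the chaperone cycle, J-domain (DnaJ) proteins bring clients to HSP70, which holds and releases them by hydrolysing ATP. HSP90 completes the folding of kinases and receptors, small HSPs hold unfolded chains, and CCT folds actin and tubulin inside a double ring. Germ cells are known for forms of their own, among them Hspa2 in spermatocytes and Hspa1l and Dnajb3 in spermatids.

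A small set of chaperones fell in the knockout, while 64 of the 73 tested did not pass the test. Of the 74 members, 73 had a mean log2 RPKM over the 4 libraries of at least 0 and entered the fit over 13414 genes. Of these, 8 fell and 1 rose at a limma Benjamini-Hochberg adjusted p under 0.05, with a median log2 change (knockout minus wild type) of 0.09. Over all genes tested, 7.15% were called lower and 1.22% higher, and the median was 0.14. Both knockout libraries were below both wild type libraries for 14 of the 73 and above them for 33, beside 16.8% and 46.4% of all genes tested. The 8 that fell were Cct8l1, Dnajb7, Hspa1l, Dnajc5b, Dnaja4, Dnajb13, Dnajc9 and Dnajb3, and Hspb1 rose. Dnajb8, the member left out of the fit by its low knockout values, had the largest fall of all 26068 named rows. In RNA from a whole organ, fewer cells of a type and less RNA per cell cannot be told apart. Without wild type replicate 1 limma called 0 members and 0 genes of any kind (by unadjusted p under 0.05, 2357 genes and 12 members). With wild type replicate 2 left out, limma called fewer members and fewer genes of any kind than with all libraries. The members were Cct8l1, Dnaja4 and Hspa1l, each lower, with log2 changes of -4.44, -1.5 and -3.12.

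**Figure D1:**
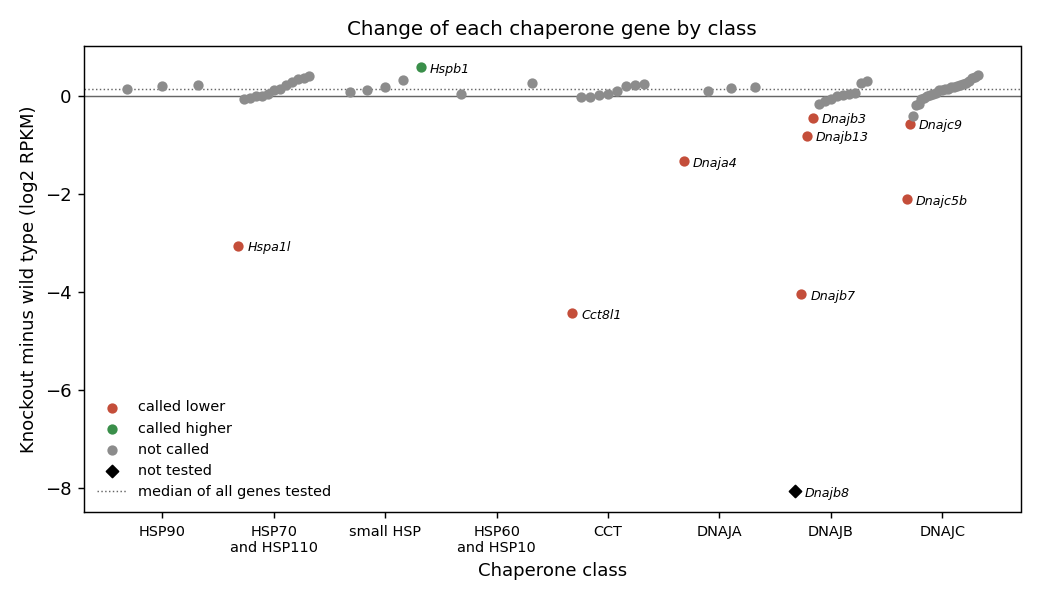
Change of each of the 74 chaperone genes by class, as knockout minus wild type on the log2 RPKM scale (vertical axis). Each point is a gene, the dotted line is the median of all genes tested (0.14), red and green points were called lower and higher, grey points were not called and the black diamond was not tested. The 5 points below -2 are Dnajb8, Cct8l1, Dnajb7, Hspa1l and Dnajc5b.

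Markers of spermatids fell in the same libraries. Of 10 round spermatid markers 8 fell, and their summed level was 392 to 421 RPKM in wild type and 169 to 206 RPKM in the knockout. Of 10 elongating spermatid markers 9 were called lower, with sums of 1015 to 1077 RPKM and 84.4 to 139 RPKM. For all 10, both knockout libraries were below both wild type libraries, beside 16.8% of all genes tested. Acr (log2 change -0.22) and Spata16 (-0.07), of the first list, and Tnp2, of the second, were the markers not called. Tnp2 had the lowest change of its list, -5.39, with a knockout SD of 1.44 and a limma adjusted p of 0.0761. No marker of either list was at or below 3 estimated reads in any library. Spermatocyte markers summed to 1487 to 1721 RPKM in wild type and 1782 to 1893 RPKM in the knockout. Of the 8, 1 was called lower (Pgk2) and 1 higher (Tex101), and 6 had changes above 0 and 2 below. Tex101 was at 202 and 231 RPKM in wild type and at 466 and 483 RPKM in the knockout. Ldhc, the largest part of each sum, was at 893 and 1060 RPKM and then at 1010 and 897 RPKM. Of the lists for spermatogonia, Sertoli, Leydig, peritubular and endothelial, immune and blood cells, 0 markers were called. Tested were 6 of 8 spermatogonia, 9 of 10 Sertoli and 8 of 8 Leydig markers. Of the others, 4 of 7 peritubular and endothelial, 5 of 7 immune and 5 of 5 blood markers were tested. All 9 Sertoli and all 6 spermatogonia markers tested had changes above 0, and 4 of 5 blood markers had changes below 0. For 8 of the 9 Sertoli markers both knockout libraries were above both wild type libraries, beside 46.4% of all genes tested. The part of these shifts in cell markers in the chaperone values was not tested.

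Among 12 members known as testis-enriched, a list drawn up with earlier results of these data known, 11 were tested. Of these 6 fell, none rose and 5 missed the threshold in limma, and the median log2 change was -0.45. The 62 other members had 2 that fell and 1 that rose, and a median of 0.12. Beside these counts, 7.15% of all genes tested were called lower and 1.22% higher. The list held the 5 largest falls among the members and also genes with intervals on both sides of 0.

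**Figure D2:**
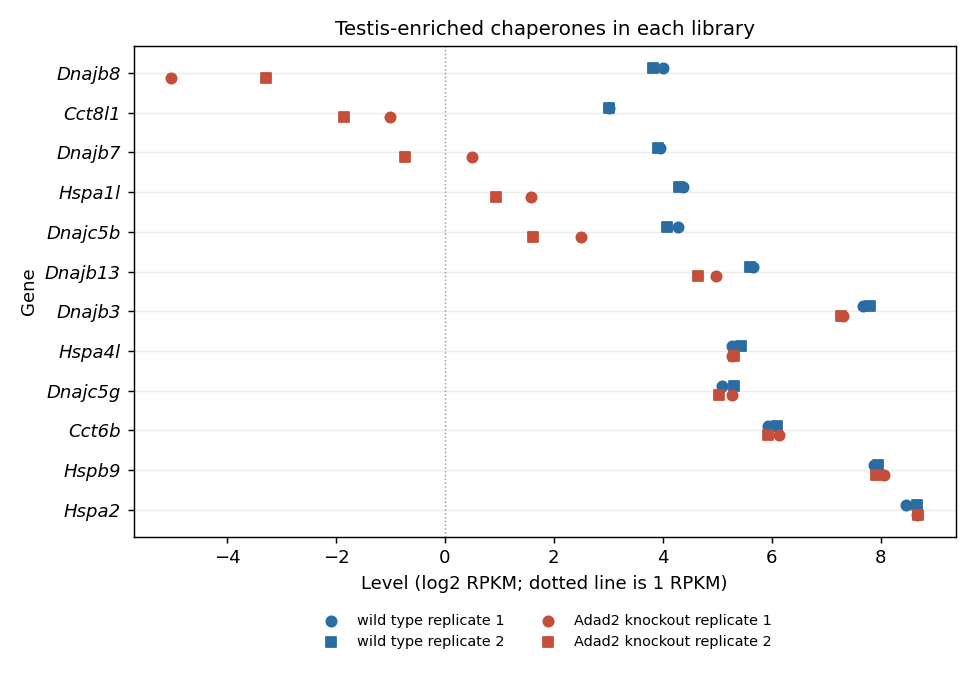
Levels of the 12 testis-enriched chaperones on the log2 RPKM axis in the 2 wild type (blue) and 2 knockout (red) libraries, 1 point per library, ordered by change. The wild type points of the upper 5 genes lie between 3.01 and 4.38 and their knockout points at or below 2.50, while the points of the lowest 5 genes overlap or nearly meet.

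Dnajb8, a DnaJ protein that holds aggregation-prone chains, was nearly missing from the knockout libraries. Its level was 4.0 and 3.82 log2 RPKM in wild type and -5.03 and -3.28 in the knockout. This corresponded to 480 and 518 reads in wild type and 1 and 3 reads in the knockout. Corrected for depth, the knockout level was 0.431% of wild type, with an exact 95% interval of 0.117% to 1.11% that covers counting error only. The log2 change was -8.07. The mean of its 4 log2 values was below 0, so it was not in the main test. In the limma fit without a filter the adjusted p was 0.0114 (n = 2 per group). Dnajb8 lies on chromosome 6 from 88172262 to 88173250 in mm9, on the plus strand. A clone-named gene on the other strand, 1700031F10Rik, covers 655 of its 989 bases and had a log2 change of -7.72 from a wild type mean of 3.83. Whether reads were assigned by strand is not given in the sources used here, so the pair cannot be told apart.

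Dnajb7, another DnaJ protein of the B class, and Cct8l1, a relative of the CCT subunit gene Cct8, had the next largest falls. Dnajb7 was at 3.95 and 3.91 log2 RPKM in wild type and at 0.49 and -0.73 in the knockout. It was 16.6-fold lower (log2 change -4.05, SE 0.44, 95% interval -5.27 to -2.83, n = 2 per group, limma adjusted p = 0.0133). The knockout replicates differed more than the wild type replicates, with SDs of 0.87 and 0.03, and neither overlapped the other group. Dnajb7 lies on chromosome 15 from 81237518 to 81238703 (mm9, minus strand), wholly within Xpnpep3 on the other strand, which was at 1.83 with a log2 change of -0.32. Cct8l1 was at 3.01 log2 RPKM in both wild type libraries and at -1.01 and -1.85 in the knockout. It was 21.7-fold lower (log2 change -4.44, SE 0.28, 95% interval -5.10 to -3.78, limma adjusted p = 0.000253). Its reads were 476 and 583 in wild type and 32 and 16 in the knockout, and those of Dnajb7 were 554 and 660 against 55 and 21. Without wild type replicate 1 the adjusted p was 0.0718 for Dnajb7 and 0.0535 for Cct8l1, and without wild type replicate 2 it was 0.0513 and 0.0438.

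Hspa1l, the HSP70 of spermatids, fell while its neighbours Hspa1a and Hspa1b, the heat-inducible HSP70 genes, were not called. Hspa1l was at 4.38 and 4.29 log2 RPKM in wild type and at 1.59 and 0.93 in the knockout. It was 8.40-fold lower (log2 change -3.07, SE 0.22, 95% interval -3.62 to -2.53, limma adjusted p = 0.000935). Hspa1a was at 1.10 and 1.02 in wild type and at 0.83 and 1.21 in the knockout, a log2 change of -0.04 (-0.46 to 0.38). Hspa1b was at 0.97 and 1.18 and then at 1.17 and 1.53, a change of 0.28 (-0.14 to 0.69). The groups overlapped for both. Hspa1a and Hspa1b are nearly identical in sequence, so their reads may have been split or shared. In mm9, Hspa1l runs from 35109648 to 35116229 on the plus strand of chromosome 17 and Hspa1a from 35106144 to 35109069 on the minus strand. A gene model on the other strand of Hspa1l, Gm10501, overlaps 2386 bases of it and had a log2 change of -3.04 from a wild type mean of 4.21, so the pair cannot be told apart. Hspa1a likewise shares 2213 bases with Gm20481 on the other strand, which was at 0.99 with a change of 0.19. The adjusted p of Hspa1l was 0.0535 without wild type replicate 1 and 0.0438 without wild type replicate 2.

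The promoters of the 4 genes with the largest falls, and of Hspa1a, whose start lies 547 bases from that of Hspa1l and points away from it, are shown to set genes that fell beside one that was not called. Each run is the 250 bases before the RefSeq start site in GRCm38.p6 (another build than that of the expression table), read 5′ to 3′ in the direction of the gene. Capitals mark matches to the motifs described after them.

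Dnajb8, chr6:88222018-88222267, plus strand: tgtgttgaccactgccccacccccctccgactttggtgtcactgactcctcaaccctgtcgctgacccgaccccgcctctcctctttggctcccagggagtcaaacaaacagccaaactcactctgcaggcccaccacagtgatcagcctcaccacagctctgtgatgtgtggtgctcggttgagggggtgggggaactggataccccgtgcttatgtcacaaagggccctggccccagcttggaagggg
Dnajb7, chr15:81408274-81408523, minus strand: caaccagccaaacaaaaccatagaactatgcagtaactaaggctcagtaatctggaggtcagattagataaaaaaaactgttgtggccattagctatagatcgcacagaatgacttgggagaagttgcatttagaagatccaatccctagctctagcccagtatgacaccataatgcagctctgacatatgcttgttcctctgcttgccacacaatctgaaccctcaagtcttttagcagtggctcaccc
Cct8l1, chr5:25515817-25516066, plus strand: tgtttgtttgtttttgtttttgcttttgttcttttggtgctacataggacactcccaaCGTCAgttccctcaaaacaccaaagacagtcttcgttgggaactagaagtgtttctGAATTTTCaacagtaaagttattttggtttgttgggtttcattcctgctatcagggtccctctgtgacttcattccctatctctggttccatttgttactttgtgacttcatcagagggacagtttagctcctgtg
Hspa1l, chr17:34972453-34972702, plus strand: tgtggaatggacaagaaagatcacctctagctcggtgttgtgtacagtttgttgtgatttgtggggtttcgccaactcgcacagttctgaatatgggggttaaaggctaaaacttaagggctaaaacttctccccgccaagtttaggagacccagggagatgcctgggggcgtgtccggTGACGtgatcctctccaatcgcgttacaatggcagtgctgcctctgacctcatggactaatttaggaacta
Hspa1a, chr17:34972157-34972406, minus strand: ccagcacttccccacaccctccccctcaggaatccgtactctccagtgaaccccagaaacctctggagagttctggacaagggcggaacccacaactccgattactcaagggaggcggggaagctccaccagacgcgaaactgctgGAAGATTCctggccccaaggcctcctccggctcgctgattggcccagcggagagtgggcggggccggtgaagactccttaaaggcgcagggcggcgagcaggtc

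Both strands were searched for a pair of heat shock element units (GAANNTTC), for its extension by 2 bases of any kind and another unit (GAANNTTC, NN, GAA) and for the cAMP response element (TGACGTCA) and its core (TGACG, which the whole element contains). CREM, a spermatid transcription factor, binds cAMP response elements, and heat shock factors bind the units. In these windows the core was found in Hspa1l, 71 bases before the start, and in Cct8l1, 192 bases before it. The heat shock pair was found in Hspa1a, 104 bases before the start, and in Cct8l1, 136 bases before it. The windows of Dnajb8 and Dnajb7 held none of these letters. RefSeq windows were matched by symbol for 61 of the 74 members. Those without a window included Dnajc5b, Hspa8, Hspa9, Hsp90aa1 and Hsp90ab1. The core was in the window of 30 of these 61 genes and of 19.8% of all 27025 genes with a window, and the whole element in 1 of 61 (Dnajc27) and 1.77% of all. Of members called lower, Cct8l1, Hspa1l, Dnaja4 and Dnajb3 held the core. Hspb1, called higher, held it too, as did members not called, among them Hspa2, Hspa4l, Dnajc5g and Dnajb1. The heat shock pair was in 12 of 61 and in 7.73% of all. The 3-unit form was in 3 of 61 (Dnajb6, Hspd1 and Hspe1) and in 0.514% of all. The members had met the wild type minimum, while all genes with a window were taken whatever their level, so these shares compare unlike sets. A match is a description of the letters and not a binding site.

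Dnajc5b and Dnajb13 also fell, with more transcript left. Dnajc5b, a cysteine string protein of the testis, was at 4.28 and 4.08 log2 RPKM in wild type and at 2.50 and 1.62 in the knockout. It was 4.35-fold lower (log2 change -2.12, SE 0.31, 95% interval -2.96 to -1.28, limma adjusted p = 0.0264). Dnajb13, a radial spoke protein of the sperm tail, was at 5.66 and 5.60 in wild type and at 4.97 and 4.65 in the knockout, 1.77-fold lower (limma adjusted p = 0.00549). The groups did not overlap for either. Dnajc5b shares 495 of its 102268 bases with 1700064H15Rik on the other strand, which had a change of -0.65. The adjusted p of Dnajc5b was 0.0508 with a filter at 2 on the log2 scale. Without wild type replicate 1 or 2 the adjusted p was 0.110 or 0.0792 for Dnajc5b and 0.133 or 0.0940 for Dnajb13.

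Dnajb3, an abundant DnaJ protein of spermatids, changed little by comparison. It was at 7.67 and 7.81 log2 RPKM in wild type and at 7.31 and 7.27 in the knockout, which is 204 and 224 RPKM against 159 and 154 RPKM. It was 1.37-fold lower (log2 change -0.45, 95% interval -0.71 to -0.19) and close to the threshold (limma adjusted p = 0.0498). It missed the threshold with each library left out in turn (adjusted p 0.0846 to 0.263), without a filter (0.0938) and in limma without trend and robust estimation. Dnajb3 is a single-exon gene inside the Ugt1a cluster on the other strand of chromosome 1 (90101307 to 90102323, mm9), and the 8 overlapping Ugt1a entries had log2 changes of 0.08 to 0.13. A further entry on its own strand, RP23-324B17.1, covers the gene and had one of 0.21.

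The other 5 testis-enriched members were not called. Hspa2, the HSP70 of spermatocytes and the member with the highest wild type mean, was at 8.46 and 8.66 log2 RPKM in wild type and at 8.67 and 8.69 in the knockout (change 0.13, 95% interval -0.16 to 0.41). Hspb9, a small HSP of germ cells, was at 7.88 and 7.96 and then at 8.06 and 7.91 (0.07, -0.20 to 0.34). Cct6b, the testis form of a CCT subunit, was at 5.94 and 6.09 and then at 6.13 and 5.93 (0.01, -0.26 to 0.29). These intervals exclude falls of the size seen in Dnajb13 or Dnajc5b. Hspa4l, of the HSP110 group, had a log2 change of -0.06 (-0.31 to 0.19), and Dnajc5g, another cysteine string protein, one of -0.04 (-0.34 to 0.26). The signs of Hspb9 (-0.01) and Cct6b (-0.02) turned after quantile normalization. In wild type, Hspa2, Hspb9 and Dnajb3 stood at 7.67 log2 RPKM or above, Cct6b, Dnajb13, Hspa4l and Dnajc5g between 5.08 and 6.09, and the 5 genes that fell furthest at 4.38 or below. Among those 5, Hspa1l was above the rest in each wild type library and Cct8l1 below them, while the wild type values of Dnajb7 and Dnajb8 overlapped.

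Set against a broadly expressed relative in the same library, the germ cell forms lost or kept their share. Hspa1l stood at 0.846 and 0.779 times the RPKM of Hspa8, the broadly expressed HSP70 of the cytosol, in wild type and at 0.105 and 0.0563 times in the knockout. Hspa2 stood at 14.3 and 16.1 times Hspa8 and then at 14.2 and 12.2 times. Dnajc5b was at 2.71 and 2.47 times the RPKM of Dnajc5 in wild type and at 0.669 and 0.377 times in the knockout, whereas Dnajc5g was at 4.71 and 5.80 and then at 4.58 and 4 times. Cct8l1 was at 0.109 and 0.0904 times Cct8, and at 0.00544 and 0.00274 times in the knockout. Cct6b and Cct6a were nearly level in wild type, at ratios of 0.951 and 0.990, and stood at 0.956 and 0.752 in the knockout. These ratios are descriptions and were not tested.

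**Figure D3:**
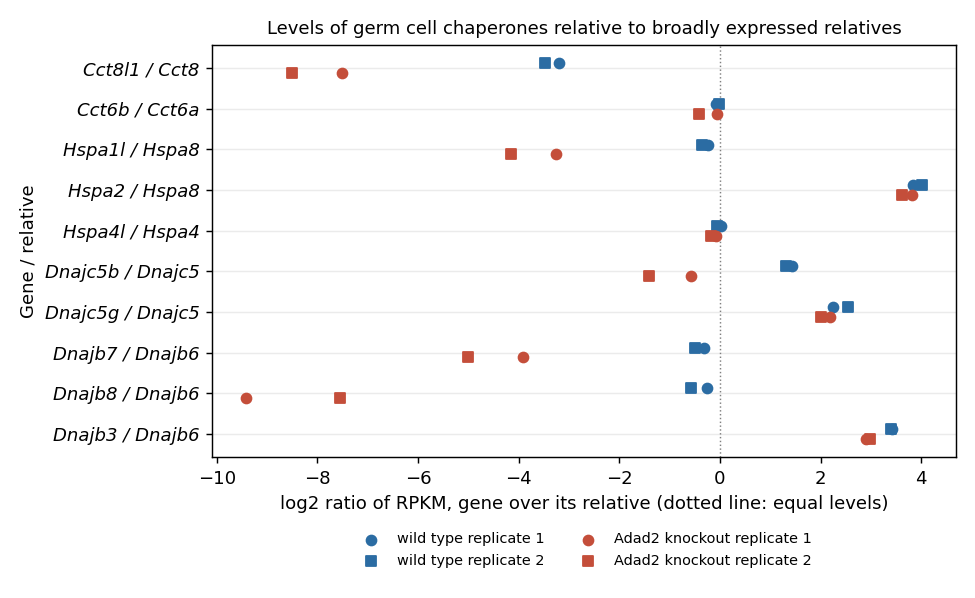
RPKM of each germ cell chaperone divided by that of a broadly expressed relative, on a log2 axis, with 1 point per library (blue wild type, red knockout). The knockout points lie far to the left for Cct8l1, Hspa1l, Dnajc5b, Dnajb7 and Dnajb8, and beside or close to the wild type points for the other 5 pairs.

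Outside the testis-enriched list, Dnaja4 and Dnajc9 fell. Dnaja4, a DnaJ protein of the A class, was at 4.0 and 3.68 log2 RPKM in wild type and at 2.56 and 2.43 in the knockout. It was 2.54-fold lower (log2 change -1.34, SE 0.13, 95% interval -1.64 to -1.04, limma adjusted p = 0.000593). The other 3 A-class genes, Dnaja1, Dnaja2 and Dnaja3, had changes between 0.09 and 0.17. Dnajc9, which hands histones to HSP70, was at 3.59 and 3.64 in wild type and at 3.04 and 3.06 in the knockout, 1.48-fold lower (limma adjusted p = 0.00925). Dnajc18 was at 3.01 and 2.94 and then at 2.56 and 2.57, a log2 change of -0.41 that was just over the threshold (adjusted p = 0.0535) and under it in 5 of the alternatives, among them both rescalings. It is named for its value and not by the rule. Without wild type replicate 1 or 2 the adjusted p was 0.0580 or 0.0426 for Dnaja4 and 0.107 or 0.106 for Dnajc9.

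Hspb1, a small heat shock protein, was the member that rose. It was at 3.09 and 3.01 log2 RPKM in wild type and at 3.54 and 3.72 in the knockout. It was 1.49-fold higher (log2 change 0.58, SE 0.11, 95% interval 0.32 to 0.83, limma adjusted p = 0.014). The other 4 members with an Hspb symbol, Hspb6, Hspb7, Hspb9 and Hspb11, had changes of 0.07 to 0.31 and none was called (Hspb9 -0.01 after quantile normalization). Below the wild type minimum and not tested, Hspb2 had a log2 change of 1.41, the heat-inducible Hspb8 one of 0.58 and Hspb3 one of -0.69. None of those held more than 37.0 estimated reads in a library. Sertoli cell markers summed to 422 to 442 RPKM in wild type and 531 to 532 RPKM in the knockout (0 of 9 called). Peritubular and endothelial markers summed to 34.7 to 38.5 RPKM and 43.0 to 44.1 RPKM (0 of the 4 tested called, of a list of 7). Acta2, the largest part of that sum, was at 25.6 and 23.5 RPKM and then at 31.4 and 29.5 RPKM. Of the 4 tested, 3 had changes above 0 and Cnn1 one of -0.19. Of the 3 not tested, Kdr had a log2 change of 0.46, Tek one of -0.33 and Pecam1 one of -0.01. Such higher sums were not limited to these 2 lists. Spermatogonia markers summed to 68.7 to 72.5 RPKM in wild type and 86.4 to 87.8 RPKM in the knockout (0 of 6 tested called). Spermatocyte sums, given above, were also higher in the knockout. Leydig and immune sums overlapped between the groups, and spermatid and blood sums were lower in the knockout. No marker of these lists was at or below 3 estimated reads, and their part in the value of Hspb1 was not tested. The limma adjusted p of Hspb1 rose above the threshold to 0.146 and 0.152 with wild type replicate 1 or 2 left out, and to 0.0549 with no filter.

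Hspb1 is shown with Hspa5, the ER chaperone, since their promoters hold heat shock and ER stress letters. The runs are made and marked as above, and in Hspa5 the long capitals mark an ER stress response element (CCAAT and CCACG with 9 bases of any kind between them).

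Hspb1, chr5:135887669-135887918, plus strand: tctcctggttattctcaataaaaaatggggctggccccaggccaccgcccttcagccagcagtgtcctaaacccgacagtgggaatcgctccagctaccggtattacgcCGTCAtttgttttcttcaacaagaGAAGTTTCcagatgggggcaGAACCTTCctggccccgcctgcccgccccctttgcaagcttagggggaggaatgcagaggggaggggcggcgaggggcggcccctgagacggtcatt
Hspa5, chr2:34771840-34772089, plus strand: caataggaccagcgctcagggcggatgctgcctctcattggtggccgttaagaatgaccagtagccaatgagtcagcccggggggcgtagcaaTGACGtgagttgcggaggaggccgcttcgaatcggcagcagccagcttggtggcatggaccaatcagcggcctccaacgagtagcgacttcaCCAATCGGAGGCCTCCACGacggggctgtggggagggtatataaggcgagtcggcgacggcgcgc

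Hspb1 held heat shock pairs 117 and 97 bases before the start and a core 141 bases before it. The ER element lay 65 bases before the start of Hspa5, and it was in 3 of the 61 windows (Dnajc3, Hsp90b1 and Hspa5) and in 0.13% of all genes with a window.

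Most heat-inducible chaperones did not pass the test. Of 13 genes listed as heat-inducible, 12 were members, of which Hspb1 rose and the other 11 were not called. The median log2 change of the 12 was 0.08, and 1.22% of all genes tested were called higher. Dnajb1, a partner of HSP70 in the heat shock response, was at 6.29 and 6.46 log2 RPKM in wild type and at 6.31 and 6.32 in the knockout (change -0.06, 95% interval -0.32 to 0.20). Hsph1, of the HSP110 group, was at 2.60 and 2.79 and then at 2.60 and 2.78 (-0.01, -0.29 to 0.28). Hspa8 was at 4.62 and 4.65 and then at 4.85 and 5.08 (0.33, 0.07 to 0.60), and its adjusted p was 0.125. Hsp90aa1, the inducible HSP90 of the cytosol, had a log2 change of 0.13 (-0.17 to 0.43) and Dnaja1 one of 0.17 (-0.10 to 0.44). Outside the list, the cytosolic Hsp90ab1 had a change of 0.20 (-0.08 to 0.48) and Dnajb6 one of 0.00 (-0.25 to 0.25), and neither was called.

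ER chaperones showed small changes. The 8 ER members had changes from 0.01 to 0.30 with a median of 0.21, beside 0.14 over all genes tested. None was called, beside 7.15% of all genes tested called lower and 1.22% higher. For 7 of the 8 both knockout libraries were above both wild type libraries, beside 46.4% of all genes tested. Hspa5 (BiP, the HSP70 of the ER) was at 7.24 and 7.41 log2 RPKM in wild type and at 7.54 in both knockout libraries. Hsp90b1, the HSP90 of the ER, was at 7.19 and 7.36 and then at 7.49 in both. The log2 change was 0.21 for each (95% interval -0.05 to 0.48), with adjusted p = 0.252 and 0.256 from limma. Dnajb11, a BiP partner, had the largest change of the list.

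No mitochondrial chaperone passed the test, though Dnajc15 was called lower after quantile normalization. The 8 members had a median log2 change of 0.05 and a range of -0.20 to 0.35. Hspa9, the mitochondrial HSP70, was at 4.98 and 5.12 log2 RPKM in wild type and at 5.03 and 5.08 in the knockout (change 0.00, 95% interval -0.24 to 0.25). Hspd1 and Hspe1, which form the mitochondrial chaperonin and its lid and are transcribed away from each other, had changes of 0.26 (-0.01 to 0.53) and 0.03 (-0.28 to 0.34).

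The 7 subunits of the CCT ring in the set, Cct2 to Cct5, Cct6a, Cct7 and Cct8, stayed within a narrow band. Their wild type means ran from 5.2 log2 RPKM (Cct3) to 6.70 (Cct7), and their changes from -0.03 to 0.24 with a median of 0.09 and 0 calls. Summed over the ring, the level was 496 and 551 RPKM in wild type and 544 and 568 RPKM in the knockout. The largest change of the ring was that of Cct8 (0.24, 95% interval -0.05 to 0.54), and the lowest that of Cct2 (-0.03, -0.27 to 0.22). Tcp1, the remaining ring subunit, was at 7.25 and 7.52 log2 RPKM and then at 7.42 and 7.37, a change of 0.01 (-0.28 to 0.30). Among the 9 CCT genes of the set the call was Cct8l1.

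**Figure D4:**
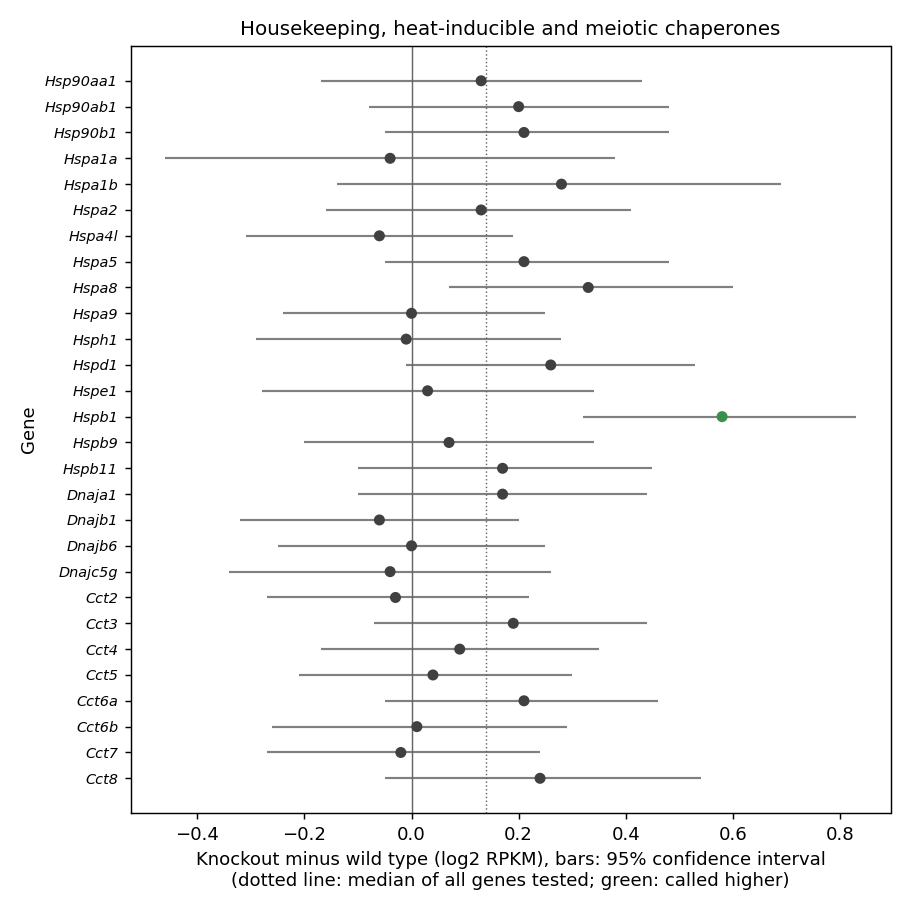
Change of 28 chaperones, chosen by name and without the 8 called lower, as knockout minus wild type on the log2 RPKM axis, with 95% confidence intervals from limma. The dotted line is the median of all genes tested (0.14). Hspb1 (green) was called higher, and of the other 27 drawn Hspa8 has an interval that excludes 0 (0.07 to 0.60). Members not drawn also had such intervals without being called, among them Dnajc8 (0.14 to 0.61), Hspa12a (0.09 to 0.70) and Dnajc18 (-0.65 to -0.17).

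In the DNAJC class, 2 of 25 members fell (Dnajc5b and Dnajc9) and the other 23 did not pass the test. The median log2 change was 0.12 and the highest 0.42 (Dnajc12). In the HSP70 and HSP110 class, 1 of 13 fell (Hspa1l), and the median was 0.11. In the DNAJB class, 3 of 12 tested fell (Dnajb3, Dnajb7 and Dnajb13), with a median of -0.03. Of the 7 members with a single exon block in the GENCODE M21 annotation, 3 fell (Cct8l1, Dnajb3 and Dnajb7), and 4 were not called (Hspa1a, Hspa1b, Hspb9 and Dnajc30). Of the 66 tested members with more exon blocks 5 fell and 1 rose. Beside each of these counts by class and exon block, 7.15% of all genes tested were called lower and 1.22% higher.

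The libraries differed in level within the wild type group. Wild type replicate 2 was above replicate 1 for 59 of the 74 members, by a median of 0.13 on the log2 scale, beside 55.1% of all genes tested and a median of 0.03. Knockout replicate 2 was above replicate 1 for 37 of 74, with a median difference of 0.00.

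Genes that regulate or assist chaperones, fixed as a list of 52 outside the name patterns, mostly did not pass the test. Of the 49 tested, 2 fell, beside 7.15% of all genes tested, and the other 47 did not pass the test. The median log2 change was 0.13. Clpb, a mitochondrial disaggregase, was at 2.26 and 2.21 log2 RPKM in wild type and at 1.23 in both knockout libraries, 2.01-fold lower (limma adjusted p = 0.00211). Hsf2, a heat shock factor active in the male germ line, was at 3.31 and 3.15 and then at 2.61 and 2.67, 1.51-fold lower (limma adjusted p = 0.0123). Hsf1, the main factor of the heat shock response, had a log2 change of 0.20 (95% interval -0.04 to 0.45), and Hsf5, a germ cell factor, one of -0.04 (-0.29 to 0.20). With either wild type replicate left out, 0 genes of the list were called. Hsf1, Hsf5 and Tcp1 are named for their roles and not by the rule.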

How the data were processed

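A TruSeq kit was used to make libraries from total RNA of whole testes, per the labels' protocols. Tools in the submitters' processing notes are Bowtie2 (mm9 genome) and bcl2fastq 2.17.1.14. The counter, its annotation, filters and strand setting are not stated there or in the labels. The authors deposited log2 RPKM values for 26127 rows. The 59 rows (0.23%) with no gene name were dropped. Columns were matched to samples by group and number. Depth was estimated from single-exon genes, where 86.0% to 87.8% of low values were whole reads within 2%.

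Rows whose mean log2 RPKM over the 4 libraries was at least 0 went into an unpaired, two-sided limma 3.58.1 fit (R 4.3.3, statmod 1.5.0, trend and robust estimation). Benjamini-Hochberg adjustment covered 13414 rows, at 0.05. Intervals are 95% confidence intervals. No exact permutation test of 2 against 2 can go below p = 0.333. The code was tested on simulated data. Named were the members called and others listed by name. Members and lists were chosen with earlier results of these data known. Alternatives were other filters, scalings, limma options, log2(RPKM + 1), a replicate block and leaving out each library. Sequences are from RefSeq tables.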

Additional observations from a re-analysis of the deposited data

How the results depend on the processing

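The count of members called lower, 8, ran from 6 to 10 over the alternatives that kept all libraries. Leaving out a library gave 0 to 7 members called lower, 0 to 2 called higher and 0 to 3 partner genes called (2 with all libraries). Members called higher, 1 with all libraries, were 0 without a filter, 2 at a mean of at least 2 on the log2 scale and 8 with the replicate block. Partner genes called were 5 after quantile normalization and 8 with the replicate block. Over all genes the counts were 959 lower and 163 higher, against 1477 and 1837 with the replicate block, 637 lower at the stricter filter and 97 higher without a filter. Same-numbered libraries deviated together (r = 0.331 across genes), but the labels do not tie them, so they share only a number. The block cannot be checked with 2 pairs. The replicate block kept all 9 calls and added Dnajb11, Dnajc8, Dnajc11, Hspa8, Hspa12a, Hspa14 and Hspb6 as higher and Dnajc18 as lower, and the stricter filter kept 6, with Cct8l1 and Dnajb7 not tested and Dnajc5b at an adjusted p of 0.0508. Equal library medians left the median over all genes at 0.13 and quantile normalization at 0.15. Without a filter Dnajb8 was called lower, and Dnajb3 and Hspb1 were not called.

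Changes of single genes were recomputed for the 37 members named by the rule and not for the others, some of which also lie near 0. Of those recomputed, Cct6b (-0.02) and Hspb9 (-0.01) changed sign after quantile normalization. Over the fits without 1 library, those whose sign turned ranged as follows, besides Dnajb6 and Hspa9 (0.00 with all libraries, each -0.07 to 0.07): Cct5 -0.03 to 0.12, Cct6b -0.09 to 0.12, Cct7 -0.09 to 0.06, Dnajb1 -0.14 to 0.02, Dnajc5g -0.17 to 0.08, Hsp90aa1 -0.02 to 0.28, Hspa1a -0.23 to 0.15, Hspa4l -0.14 to 0.02, Hspb9 -0.01 to 0.14, Hspe1 -0.10 to 0.16 and Hsph1 -0.10 to 0.09. The cause was not tested. A group left with a lone library was assumed to vary like the other. Depth limits the size of the falls of Dnajb8, Cct8l1 and Dnajb7, whose knockout libraries held 1 to 55 reads.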
